A study of Mus musculus with 6 samples.

Results

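Elastic fibres let a tissue stretch and recoil. They consist of a core of elastin on a scaffold of microfibrils, with fibulins that help place elastin on that scaffold, and lysyl oxidases then oxidise lysines so that elastin and collagen chains become crosslinked. In the mammary gland these genes are known mainly from fibroblasts, vessel walls and the stroma around ducts. The set described here is elastin (Eln), 3 microfibril-associated proteins (Mfap2, Mfap4 and Mfap5), 3 fibulins (Fbln1, Fbln2 and Fbln5) and 3 lysyl oxidases (Lox, Loxl1 and Loxl2). The members were chosen by gene symbol, with earlier results of these data known. A probe set, the unit of the array, was taken where the platform annotation gives it a single symbol that is one of these names. This gave 19 probe sets for 9 of the 10 genes, out of 45037 probe sets without controls. Loxl2 has no value here, because both of its 2 probe sets also carry a second symbol.

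The RNA came from mammary glands of female mice that carried both transgenes of a cross between the LH mouse, as the labels call it, and the MMTV-neu mouse, in which the promoter of the mouse mammary tumour virus drives the neu oncogene. By their labels the groups differed only in age, 10 weeks against 5 weeks, and both carried both transgenes. There were 3 arrays for each age, and since each held the RNA of 3 animals combined, 9 animals stood behind each age. No mice without the transgenes were analysed here, so age and time under the transgenes cannot be told apart, and the labels do not give the promoter of the LH transgene. Values are linear signal intensities on arrays scaled to 1 trimmed mean, whose medians were 156.4 to 172.5. The number of arrays limits the precision. Luminal epithelial markers were bright at both ages, with a summed signal of 31750 to 40423 for 8 markers at 5 weeks and 59002 to 68023 at 10 weeks. Skeletal muscle markers were also present, and their summed signal was 4937 in 10-week pool 1, 32491 and 34725 in the other pools of that age and 41725 to 82002 at 5 weeks. No pool's muscle level was adjusted for, and its part in the values below was not tested.

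The table of promoters from RefSeq (build GRCm38.p6) held 4 of the 10 genes. For all 4, the 250 bases before the most upstream annotated start are shown. Mfap2, Fbln2 and Fbln5 were called lower at 10 weeks, while Fbln1 had a difference in the same direction that missed the threshold. Each reads 5′ to 3′ on the gene's strand. Capitals mark matches, searched on both strands, to any of 5 motifs. The TATA box was searched as TATAAA. The GC box, which Sp-family factors bind, was searched as GGGCGG. The CCAAT box was searched by the letters of its name. The AP-1 site was searched as TGANTCA, where N is any base. The E-box was searched in its form CACGTG, which reads alike on both strands. None of these matches overlapped another. Mfap2 lies on the plus strand at chr4:141010174-141010423, Fbln2 on the plus strand at chr6:91212514-91212763, Fbln5 on the minus strand at chr12:101819120-101819369 and Fbln1 on the plus strand at chr15:85205699-85205948.
Mfap2: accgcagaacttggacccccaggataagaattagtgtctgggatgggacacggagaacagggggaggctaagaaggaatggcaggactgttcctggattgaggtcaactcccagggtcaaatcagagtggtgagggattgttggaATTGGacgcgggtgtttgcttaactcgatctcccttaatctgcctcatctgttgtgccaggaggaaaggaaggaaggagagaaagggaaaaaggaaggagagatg
Fbln2: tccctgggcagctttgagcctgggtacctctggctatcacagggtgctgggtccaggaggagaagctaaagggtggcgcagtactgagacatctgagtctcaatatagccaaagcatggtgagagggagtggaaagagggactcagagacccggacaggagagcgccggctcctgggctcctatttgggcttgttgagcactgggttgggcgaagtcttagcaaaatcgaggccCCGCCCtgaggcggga
Fbln5: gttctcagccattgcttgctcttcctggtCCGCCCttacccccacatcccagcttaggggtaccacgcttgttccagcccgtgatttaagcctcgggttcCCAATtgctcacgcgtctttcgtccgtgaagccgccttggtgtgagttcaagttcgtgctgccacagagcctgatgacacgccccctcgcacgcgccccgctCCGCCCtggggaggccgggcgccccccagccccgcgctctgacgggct
Fbln1: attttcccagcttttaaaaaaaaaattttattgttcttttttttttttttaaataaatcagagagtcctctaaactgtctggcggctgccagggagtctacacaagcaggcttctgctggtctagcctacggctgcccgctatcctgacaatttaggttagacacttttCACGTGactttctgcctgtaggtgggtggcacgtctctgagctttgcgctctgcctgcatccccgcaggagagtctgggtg
The Fbln5 window held 2 GC boxes, the nearest 43 bases before the start, and 1 CCAAT box. The Fbln2 window held 1 GC box 11 bases before the start, the Mfap2 window 1 CCAAT box, and the Fbln1 window 1 E-box 76 bases before the start. Among 27019 promoter windows of the same length, 33.0% held a GC box, 34.5% a CCAAT box and 6.04% this E-box. A TATA box was in 13.0% and an AP-1 site in 6.85% of all windows, and no match to either was found in the 4 windows. GC content was 65.2% for Fbln5, 58.8% for Fbln2, 51.2% for Mfap2 and 46.4% for Fbln1, against a median of 52.0%. No motif of the 5 was found in all 3 windows of the genes called lower, which describes these letters only.

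The comparison of the ages asks how the gland differed at 10 weeks from 5 weeks. All 9 genes passed the filter on dim probe sets, which used the mean over the pools of both ages. Of these 9 genes, 8 fell at 10 weeks, none rose, and Fbln1 did not pass the test. The call for Mfap4 was the least firm, and its signals in 10-week pools 2 and 3 are not shown to be above background. Over all 13002 genes tested, 19.7% were called lower and 16.1% higher by the same limma test at an adjusted p of 0.05. Since the members were chosen with earlier results of these data known, these shares are a description and not a test of the set. The median log2 difference was -1.45 for the 9 genes and -0.004 for all genes. The 3 values at 10 weeks lay below the 3 at 5 weeks for 7 of the 9 genes, against 26.3% of all genes. The largest falls with separate ages were those of Mfap2, Loxl1, Fbln2 and Fbln5, whose mean signal at 5 weeks was 2.76 to 3.87 times that at 10 weeks, and the smallest was that of Lox, at 1.64 times.

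**Figure D1:**
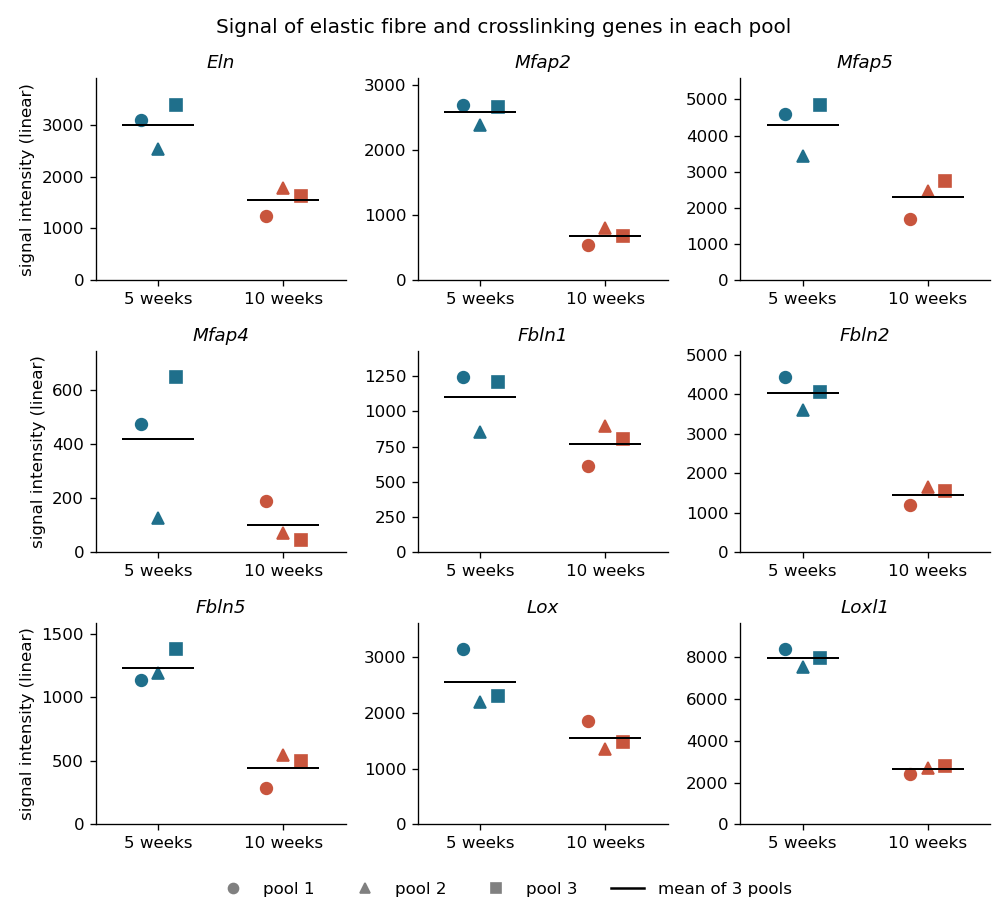
Linear signal intensity (vertical axes, from 0, different for each gene) of the brightest probe set of each gene in the 3 pools at 5 weeks (blue) and the 3 at 10 weeks (red), with symbols for pool number and a black line for the mean; pool numbers do not pair the ages. The ages are separate for 7 genes and overlap for Mfap4 and Fbln1.

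Eln encodes tropoelastin, the soluble monomer that is crosslinked into the elastic core. Its brightest probe set gave 3092.9, 2537.5 and 3399.5 at 5 weeks and 1237.6, 1782.0 and 1621.1 at 10 weeks. The ages did not overlap, and each 10-week pool lay well under the lowest 5-week pool. The means were 3010 ± 437 (SD, n = 3) and 1547 ± 280 (SD, n = 3), a log2 difference of -0.95 ± 0.16 (SE) with a limma adjusted p of 0.00193. A second, dimmer probe set of Eln gave 896.0, 892.0 and 913.9 at 5 weeks and 42.1, 117.9 and 166.1 at 10 weeks. Its signal in 10-week pool 1 lay under all those of a Lox probe set that the filter removed (47.4 to 63.0), and with no detection call here its 10-week signals are not shown to be above background. Its log2 difference was -2.84 ± 0.31 (SE), with a limma adjusted p of 0.00033 over all probe sets. The signal ratio of the brighter to the dimmer probe set was 2.85 to 3.72 at 5 weeks and 9.76 to 29.4 at 10 weeks, given as a description with no test because of those dim signals. With the mean of both probe sets the Eln difference was -1.90 in place of -0.95. The direction for Eln is therefore that of both probe sets, while its size depends on which one is read.

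Mfap2 and Mfap5 encode small microfibril-associated glycoproteins that bind fibrillin. Mfap2 gave 2696.7, 2386.6 and 2668.5 at 5 weeks and 530.6, 797.1 and 676.0 at 10 weeks. The gap between the ages was far wider than the spread within either. The log2 difference was -1.92 ± 0.15 (SE), with a limma adjusted p of 5.06e-05, and the second probe set fell by 1.63. Mfap5 gave 4597.6, 3443.8 and 4855.7 at 5 weeks and 1673.8, 2469.3 and 2741.0 at 10 weeks. The ages were separate, but the highest 10-week pool came nearer to the lowest 5-week pool than for Mfap2. Its log2 difference was -0.91 ± 0.19 (SE), with a limma adjusted p of 0.0066, and its second probe set fell by 1.12.

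Mfap4 encodes a fibrinogen-related protein of the microfibril that binds elastin. Its single probe set was dim and uneven, with 473.9, 127.8 and 646.7 at 5 weeks and 188.2, 69.5 and 46.7 at 10 weeks. In 10-week pool 3 its signal lay under all those of a Lox probe set that the filter removed (47.4 to 63.0). In 10-week pool 2 it lay just above them. With no detection call here, the signals of these pools are not shown to be above background. The ages overlapped, since 10-week pool 1 exceeded 5-week pool 2. The log2 difference was -1.65 ± 0.54 (SE), with a limma adjusted p of 0.0412, the least firm of the 8 calls. The call was lost without 10-week pool 2 (-1.53, limma adjusted p = 0.109) or pool 3 (-1.35, 0.127), and without 5-week pool 1 (-1.45, 0.117) or pool 3 (-1.24, 0.135), and it also ended with no filter (adjusted p = 0.0704), quantile normalization (0.0517), no variance trend (0.0585), robust variance (0.0846) or averaged probe sets (0.0527).

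The fibulins differed in the size of their change. Fbln5, which binds elastin and Loxl1 and is needed for elastic fibres to form, gave 1132.0, 1187.2 and 1377.0 at 5 weeks and 286.3, 549.1 and 501.0 at 10 weeks. The ages were far apart, and 10-week pool 1 was the lowest. The log2 difference was -1.45 ± 0.22 (SE), with a limma adjusted p of 0.00115. Fbln2, a fibulin of vessel walls and basement membranes, gave 4438.5, 3599.5 and 4051.3 at 5 weeks and 1185.8, 1642.6 and 1545.2 at 10 weeks. Every 10-week pool was under every 5-week pool, again with 10-week pool 1 the lowest. Its log2 difference was -1.46 ± 0.14 (SE), close to that of Fbln5, with a limma adjusted p of 0.000136.

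Fbln1 is a fibulin of basement membranes and elastic fibres that also binds fibronectin. Its brightest probe set gave 1243.4, 849.5 and 1209.2 at 5 weeks and 613.2, 892.8 and 802.8 at 10 weeks. The ages overlapped, with 5-week pool 2 below 10-week pool 2. Its log2 difference, -0.50 ± 0.18 (SE), missed the threshold (limma adjusted p = 0.065). Without 5-week pool 2 it was -0.67 and passed (limma adjusted p = 0.0194), while with the mean of the 3 probe sets it was -0.14 (limma adjusted p = 0.57). The other probe sets of Fbln1 had differences of -0.07 ± 0.14 (SE) and 0.16 ± 0.31 (SE). One of them gave 348.2, 346.2 and 354.1 at 5 weeks and 283.0, 352.5 and 364.2 at 10 weeks, so that only 10-week pool 1 lay apart. The signal ratio of Fbln1 to Fbln2 was 0.236 to 0.298 at 5 weeks and 0.517 to 0.543 at 10 weeks, and that of Fbln1 to Fbln5 was 0.716 to 1.10 and 1.60 to 2.14. Neither ratio overlapped between the ages (exact two-sided permutation test of each log ratio over pools, p = 0.1, the smallest that 3 against 3 can give), so in every pool at 10 weeks Fbln1 was higher relative to both other fibulins than in any pool at 5 weeks. These 2 ratios, that of the Eln probe sets and that of Lox to Loxl1 are the 4 that were computed, after the values were seen.

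Lysyl oxidases are copper-dependent enzymes that start the crosslinks. Loxl1, the member most closely tied to elastin, was among the brightest probe sets of the array and gave 8377.3, 7517.0 and 7966.9 at 5 weeks and 2417.0, 2712.3 and 2807.1 at 10 weeks. The pools of an age differed little and the ages were far apart. Its log2 difference of -1.58 ± 0.10 (SE) had the smallest p of the set (limma adjusted p = 2.91e-05), and its dim second probe set fell by 1.69. In 10-week pool 1 that second probe set gave 53.7, in the range of a Lox probe set that the filter removed (47.4 to 63.0). That signal is not shown to be above background, so the size of this fall is uncertain. Lox, which acts on both collagen and elastin, gave 3139.6, 2204.3 and 2298.9 at 5 weeks and 1846.9, 1344.1 and 1469.7 at 10 weeks. The ages were separate but neighbouring, and 10-week pool 1, the lowest pool for 7 of the 9 genes, was the highest here. The log2 difference was -0.70 ± 0.16 (SE), with a limma adjusted p of 0.0107, and the second tested probe set of Lox fell by 0.96. The signal ratio of Lox to Loxl1 was 0.289 to 0.375 at 5 weeks and 0.496 to 0.764 at 10 weeks, again without overlap (exact two-sided permutation test of the log ratio, p = 0.1), as Loxl1 fell further than Lox in these pools. The remaining Lox probe set was under the filter, with means of 55.8 at 5 weeks and 52.5 at 10 weeks.

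**Figure D2:**
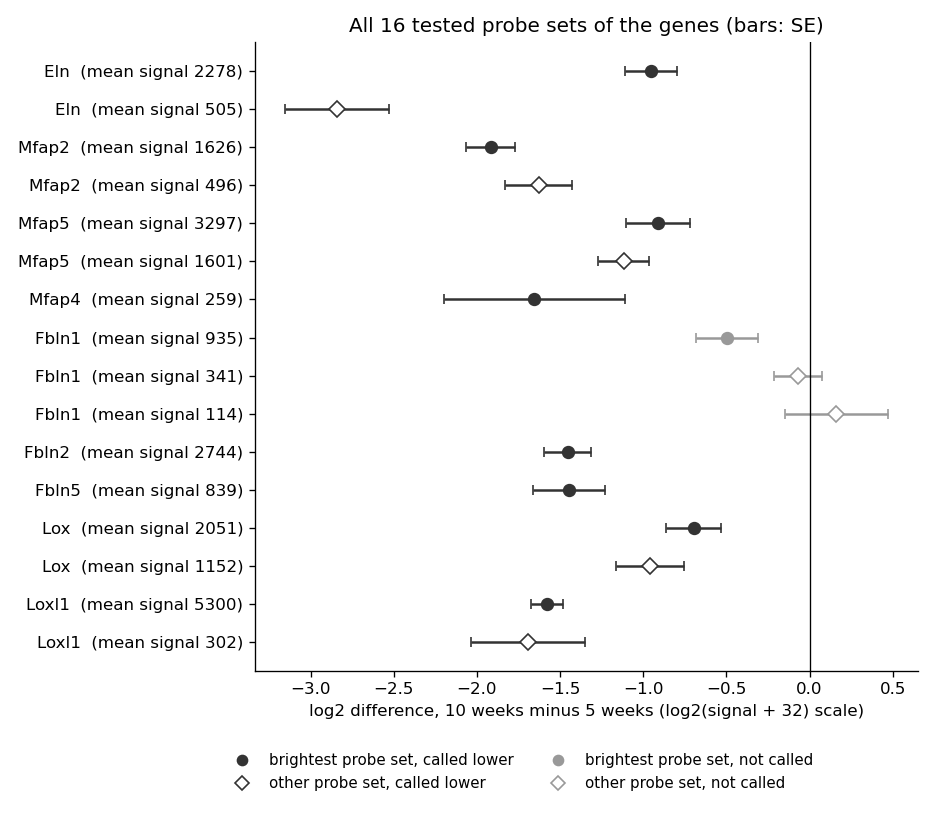
Log2 difference, 10 weeks minus 5 weeks, with its SE, for the 16 probe sets of these genes that passed the filter; circles are the brightest probe set of a gene, diamonds the others, black those called lower and grey those not called. The pair for Eln differs most (-0.95 and -2.84), and the 3 for Fbln1 lie nearest to 0.

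At the level of probe sets, 16 of the 19 passed the filter and 13 of these were called lower, none higher, against 15.3% lower and 13.4% higher among all 27022 probe sets tested. The 3 that were not called were those of Fbln1. The filter used the mean over the pools of both ages, so a probe set bright at 5 weeks alone could pass. Among the 13, the dimmer Eln probe set had mean signals of 900.6 at 5 weeks and 108.7 at 10 weeks. Those of Mfap4 were 416.1 and 101.5, and those of the dim Loxl1 probe set 467.4 and 135.7. Whether the 10-week signals of these probe sets would pass alone was not tested. Probe sets of a gene share its transcripts and are no replicates. Within an age the genes also tended to share the order of the pools. At 5 weeks pool 2 was the lowest for 8 of the 9 genes, all but Fbln5, and at 10 weeks pool 1 was the lowest for 7 of the 9, all but Lox and Mfap4. Summed marker signals moved with this order in part. Skeletal muscle markers were also lowest in these pools (41725 in 5-week pool 2 and 4937 in 10-week pool 1). In 10-week pool 1 the markers of fibroblasts (54518), endothelium (3824) and adipocytes (31524) were also the lowest of that age, and the luminal markers (68023) the highest. In 5-week pool 2 the luminal (31750), basal (2302) and smooth muscle and pericyte markers (22937) were the lowest of that age, and the adipocyte markers (48948) the highest. Its fibroblast markers (99389) were about level with those of 5-week pool 1 (99082), with mean log2 signals of 13.47 and 13.49. The fibroblast markers were lowest of that age in 5-week pool 3 (84311, mean log2 signal 13.29). That pool was the highest of its age for 4 of the 9 genes, and 5-week pool 1 for 5. The part of these markers in the shared order was not tested. Without 10-week pool 1 the 8 genes other than Fbln1 were called lower, as with all pools, and without 5-week pool 2 all 9 were.

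Markers of fibroblasts, the main source of this matrix, moved in the same direction. Of 8 fibroblast markers 7 fell and none rose, with a median log2 difference of -0.88, and their summed signal ranged from 84311 to 99389 at 5 weeks and from 54518 to 61579 at 10 weeks. The lowest fibroblast marker, Pdgfra, still had a mean signal of 2823 at 10 weeks. The RNA was of whole glands, on arrays scaled to 1 trimmed mean. Fewer cells of a type, less RNA per cell and more RNA from other cells therefore cannot be told apart. To place the genes beside this marker list, each pool was also scaled to the mean of its 8 fibroblast markers, an alternative chosen after the data were seen that adds 0.80 to every gene's log2 difference, so that any smaller fall turns positive by construction. On that scale Mfap2 (-1.12, limma adjusted p = 3.98e-05), Loxl1 (-0.78, 0.000185), Fbln2 (-0.66, 0.00172) and Fbln5 (-0.65, 0.00882) were still called lower, which is 4 of the 9, against 3.88% of all genes lower and 75.4% higher on this scale, and their ages stayed separate. The values of Eln (-0.15 ± 0.18, limma adjusted p = 0.431), Mfap5 (-0.11 ± 0.19, 0.585), Lox (0.10 ± 0.20, 0.641), Mfap4 (-0.86 ± 0.46, 0.0986) and Fbln1 (0.30 ± 0.20, 0.164; all ± are SE) did not pass the test, and the ages overlapped for all 5. Some fibroblast markers were near the top of the signal range, where differences may be compressed. With the 5 markers of mean signal under 10000 alone, the shift was 1.02. Mfap2 (-0.90, limma adjusted p = 0.000116), Loxl1 (-0.56, 0.0027) and Fbln2 (-0.44, 0.0198) were then called lower, Fbln5 was not (-0.43, 0.0522), and Fbln1 was called higher (0.52, 0.0172), against 2.43% of all genes lower and 84.2% higher. Since most genes pass on these scales, the adjusted threshold is less strict there than on the array scale.

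**Figure D3:**
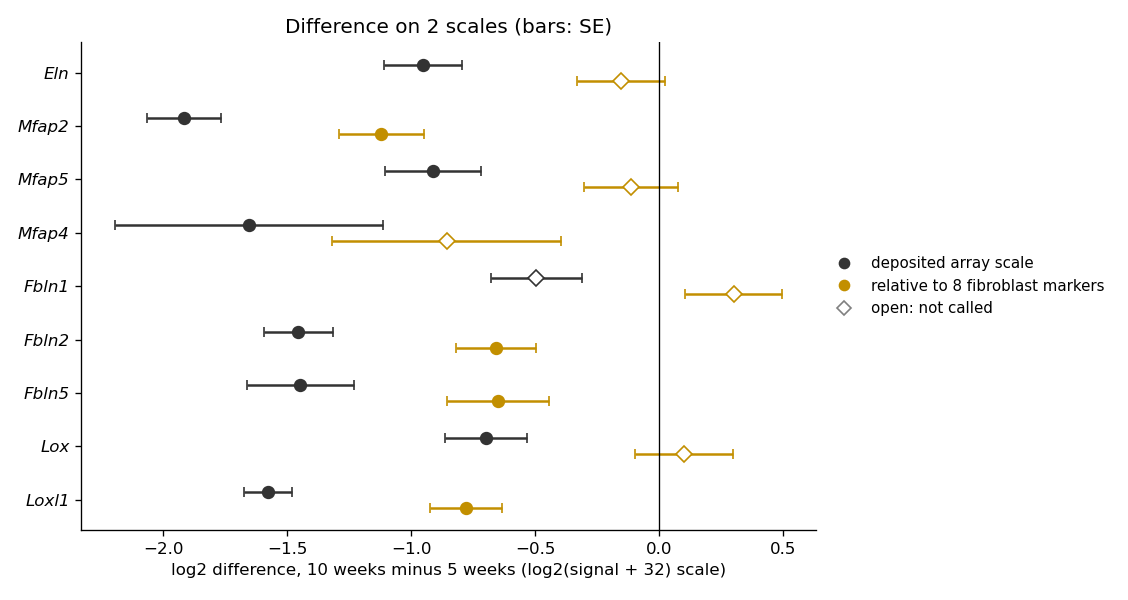
Log2 difference, 10 weeks minus 5 weeks, with its SE, for each gene on the deposited array scale (black) and relative to the mean of 8 fibroblast markers of the same pool (yellow); filled circles passed the test and open diamonds did not. Mfap2, Fbln2, Fbln5 and Loxl1 are called on both scales.

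Smooth muscle and pericyte markers, the other cells known to make elastin, did not share one direction. Of 8, 3 fell and 3 rose, with a median of -0.06 and a summed signal of 22937 to 28615 at 5 weeks and 24722 to 26871 at 10 weeks. The contractile genes Acta2 (0.34), Myh11 (0.67) and Cnn1 (0.67), which myoepithelium also uses, rose. The pericyte markers Pdgfrb (-1.47) and Rgs5 (-0.40) fell, as did Des (-2.62), an intermediate filament gene that skeletal muscle also uses. Of 6 endothelial markers 5 fell, with a median of -0.77, and of 8 skeletal muscle markers 5 fell, with a median of -2.26. All 8 luminal markers rose, with a median of 0.77. Of 4 basal epithelial markers 1 rose and 1 fell, and of 5 adipocyte markers tested 2 fell. How far these markers account for the members' values was not tested.

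More of the other genes listed with the elastic fibre fell than rose. Of 21 listed genes for microfibrils and elastin assembly 16 were tested, and 9 fell, 2 rose and 5 did not pass the test, with a median log2 difference of -0.67, beside 19.7% lower and 16.1% higher among all genes. Efemp1, a fibulin family member, fell by 1.98 ± 0.13 (SE) on the log2 scale, with signals of 4371.7 to 4812.4 at 5 weeks and 965.1 to 1331.2 at 10 weeks. Hmcn1, a large hemicentin with a fibulin-type end, fell by 1.71, and Emilin2, an elastin microfibril interfacer, fell by 1.12. Mfap3l, named for its likeness to Mfap3, rose by 1.57, and Mfge8, the milk fat globule protein, rose by 1.09 and is named after its value was seen. The main fibrillin gene Fbn1 and Efemp2, a fibulin needed for elastin crosslinking, were not analysed here.

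Among 12 tested of 15 further genes of crosslinking, 8 fell, 1 rose and 3 did not pass the test, with a median of -0.76. Plod2, which hydroxylates the lysines of collagen ends before crosslinking, fell by 2.17 ± 0.17 (SE) on the log2 scale, with signals of 2112.7 to 3256.9 at 5 weeks and 517.0 to 675.2 at 10 weeks. Its relative Plod1, which acts within the collagen helix, fell by 1.11, and Crtap, a subunit of the collagen prolyl hydroxylation complex, fell by 0.96. Plod3, which also adds sugars to collagen lysines, rose by 0.75, from 2159 ± 143 (SD, n = 3) to 3665 ± 356 (SD, n = 3). The other lysyl oxidases of this list, named after their values were seen, were Loxl3, which fell by 0.38, and Loxl4, with a log2 difference of 0.34 ± 0.25 (SE; limma adjusted p = 0.313). Bmp1, the protease that frees active Lox from its precursor and was also named after its value was seen, fell by 1.12.

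Proteases that can cut elastin went both ways. Of 12 tested, 4 rose, 4 fell and 4 did not pass the test, with a median of 0.13. Mmp14, a membrane-bound metalloprotease, fell from 3840 ± 253 (SD, n = 3) to 1149 ± 102 (SD, n = 3), and Mmp2 fell by 1.12. Prtn3, a serine protease of neutrophil granules, fell by 2.18, and the cathepsin gene Ctsk fell by 0.74. Mmp12, the macrophage elastase, gave 49.0, 46.7 and 39.8 at 5 weeks and 868.7, 590.4 and 596.2 at 10 weeks. All 3 of the later values lay far above the earlier ones, the opposite direction to Eln. The 5-week signals of Mmp12 were no brighter than those of the Lox probe set that the filter removed (47.4 to 63.0). With no detection call here, they are not shown to be above background, so the size of the rise is uncertain. Mmp7, an epithelial metalloprotease, rose by 1.25, and the lysosomal cathepsin genes Ctsl and Ctss rose by 0.59 and 0.44. The signals of Mmp7 in 5-week pools 2 and 3 (56.2 and 52.5) were also in the range of that removed Lox probe set.

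**Figure D4:**
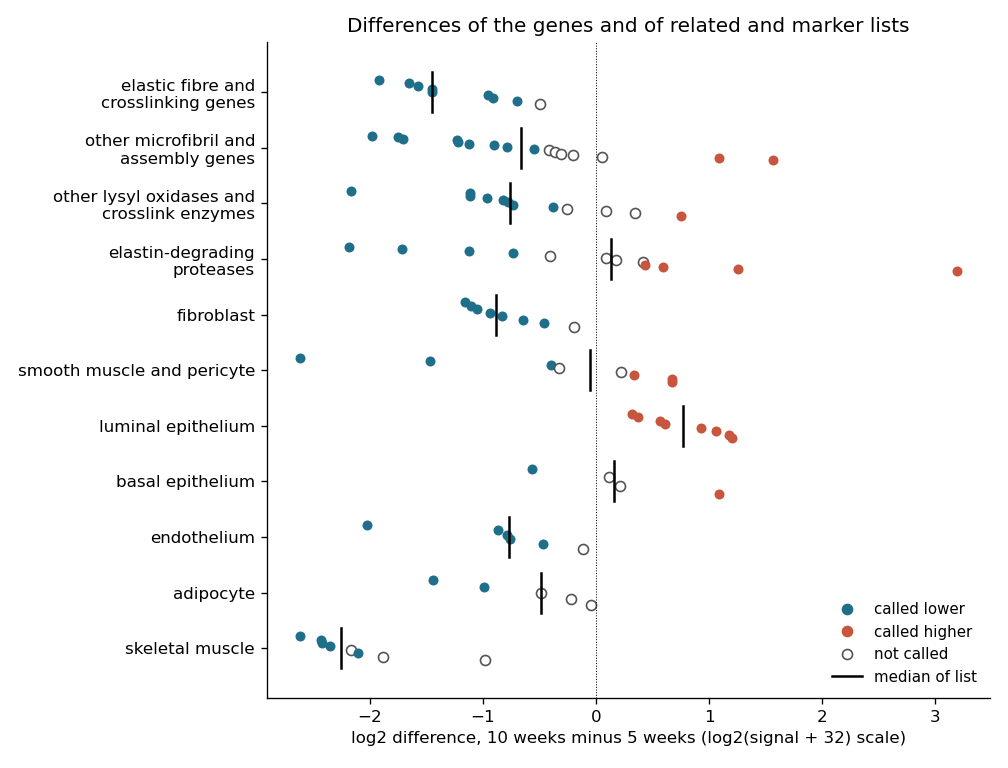
Log2 difference, 10 weeks minus 5 weeks, of each tested gene in the elastic fibre set, 3 lists of related genes and 7 lists of cell type markers; blue points were called lower, red higher, open points were not called, and black lines are medians. The set's median of -1.45 lies lower than those of the other lists shown except skeletal muscle (-2.26).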

How the data were processed

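Each of 6 RNA pools was labelled with biotin-UTP for a mouse expression array, per the labels. The deposited values are linear signal intensities, and their mean, trimmed by 2% at each end, was 500 for each of the arrays, as found from the values. The algorithm behind them, any detection call and any batch are not given in the sources used here. Symbols come from the platform annotation, updated by gene identifier through RefSeq for genes that are no members. Values under 1 were set to 1, log2(value + 32) was taken, which understates differences of dim genes, and the dimmest 40% of probe sets by mean were removed. Array medians lay within 0.118 on this scale, so no normalization was added. limma 3.58.1 in R 4.3.3 (lmFit, eBayes with a variance trend, 4 residual degrees of freedom, two-sided) was fitted to 27022 probe sets, and p was adjusted by Benjamini-Hochberg over 13002 genes, each by its brightest probe set, or over probe sets where stated. The members and gene lists were chosen with earlier results of these data known. Named genes are all members and, in each related list, the 3 smallest adjusted p in the main direction and the largest call in the other. The protease list had no main direction, so all its calls are named, and the smooth muscle and pericyte calls are named after their values were seen. Marker lists are given by counts and examples. Alternatives changed the offset, filter, normalization, variance model, weights and probe sets, and left out each pool. The steps were tested on simulated data. Replicate numbers follow accession order and pair no pools. Figures were drawn with matplotlib 3.10.9.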

Additional observations from a re-analysis of the deposited data

How the results depend on the processing

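Of the 9 genes, 7 to 9 were called lower when single pools were left out and 7 or 8 under the other settings tried, and none was called higher in any of these. With the lowest 60% of probe sets left out, Mfap4 was no longer tested. The calls of Eln, Lox, Loxl1, Fbln2, Fbln5, Mfap2 and Mfap5 were kept in all 15 of these settings each, with their highest adjusted p at 0.041 (Lox). In all, 124 values of single genes kept their direction and side of the threshold, 9 of Mfap4 lost the call and 1 of Fbln1 gained it. Over all genes the calls numbered 4654, and 3556 to 3977 without a pool. Member probe sets called numbered 13, and 11 to 14 over these settings. The scaling to fibroblast markers, chosen after the data were seen, adds a constant to every difference, so any fall smaller than that constant becomes positive by construction. With 8 markers (0.80 added) 4 genes were called lower, and Lox (0.10) and Fbln1 (0.30) stood above 0. With the 5 dimmer markers (1.02 added) 3 were called lower and 1 higher, and Eln (0.065), Lox (0.32), Fbln1 (0.52) and Mfap5 (0.11) stood above 0. No paired analysis was possible because the labels give no shared replicate numbers. With 3 pools per age, small differences such as that of Fbln1 cannot be settled, and for the dim probe sets of Mfap4 and Eln the offset sets part of the size (Mfap4 -1.99 with an offset of 1 and -1.26 with 100).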
